A study of Mus musculus with 2 samples.

Results

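The acute phase protein genes described here are Saa1, Saa2, Saa3, Lcn2, Hp, Hpx, Orm1, Cp, Itih4 and Serpina3n, 10 of the 35275 mouse genes with a read count. They were taken by symbol from a list chosen by read counts of these same libraries, so their ratios are a description and carry no test. The study made AML12 cells senescent with hydrogen peroxide and set their RNA against that of untreated AML12 cells. AML12 is a non-transformed hepatocyte line from the liver of a mouse carrying a transgene for human transforming growth factor alpha, and the labels give strain CD-1, male, 3 months. The senescent cells received 1 mM peroxide on the first day and 750 μM on the following days, for 1 h per day over 6 days in serum-free medium, each time with 23 h of recovery. The control cells received no peroxide, and a matching change to serum-free medium is not described for them. Both groups grew in medium with 10% serum and 100 nM dexamethasone, a glucocorticoid. Because 3 samples of a condition were pooled before sequencing, each group is 1 library. There is thus no replicate check, no p-value was computed, and every ratio compares 2 libraries.

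The acute phase response is the change in plasma proteins that hepatocytes make during infection or injury. Cytokines of the interleukin-6 type act through gp130, JAK kinases and STAT3, cytokines of the interleukin-1 type act through NF-κB, and the C/EBP factors and glucocorticoids add to both. Serum amyloid A and orosomucoid genes respond to the interleukin-1 and interleukin-6 types together, whereas the fibrinogen genes respond mainly to the interleukin-6 type. The secreted proteins bind lipids, siderophores, haemoglobin, haem or copper, or inhibit proteases.

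The control library held 28021941 counted reads and the senescent library 25738075. Reads were scaled by edgeR's TMM method, which brings libraries to a common level from genes that differ little, and are given as CPM, counts brought to a common library total. A log2 ratio is senescent over control, with a prior count of 1, and its 95% Clopper-Pearson interval covers counting error only, as do all intervals and floors here. Without molecular identifiers, PCR copies of 1 molecule are counted as several reads. Genes past a log2 ratio of 1.5 in either direction, a limit taken from the methods of the study, count as higher or lower if the interval leaves out 0 and both libraries together hold at least 10 reads. In bulk RNA, fewer cells that express a gene and less RNA per cell cannot be told apart. Of the hepatocyte markers, Alb had 32076 control and 2917 senescent reads and Apoa1 2026 and 197, whereas Krt8 had 119403 and 144783 and Hnf4a 8187 and 7705, and Cyp3a11 had only 2 and 18. Of 5 bile duct markers, Krt19, with 22885 and 19177 reads, and Spp1, with 25430 and 10580, were abundant in this line as well. Sox9 had 3602 and 4454 reads and Krt7 3248 and 1026, whereas Epcam had only 0 and 1.

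Expression of 6 of the 10 genes was lower in the senescent library past the threshold and none was higher. These were Saa3, Lcn2, Hp, Orm1, Cp and Hpx. Itih4 passed the filter but not the threshold, and Saa1, Saa2 and Serpina3n had fewer than 10 reads. Over all 14383 genes with at least 10 reads, 5.60% were lower past the same threshold, and over those with at least 100 reads 3.50%. The sum over the 10 genes was 55882 control reads against 13679 senescent reads, and its log2 ratio was -1.80 (95% interval -1.83 to -1.77). As a share of all reads this was 0.199% of the control library (exact binomial interval 0.198% to 0.201%) and 0.0532% of the senescent library (0.0523% to 0.0540%). The 6 genes fell by unequal amounts. The interval of Saa3 lay below those of Lcn2 and Hp, which overlapped each other, that of Orm1 lay between, and those of Hpx and Cp overlapped nearest to 0. Ordered from the lowest log2 ratio over the 14383 genes, Saa3 was at place 1, Lcn2 at 8 and Hp at 10. This order depends on the prior count, which sets the ratio of genes with few or no senescent reads. With a prior count of 5 the places were 1, 2 and 3, and with the smaller prior count that was tried they were 37, 45 and 46. Over the 11291 genes with at least 100 reads they were 1, 5 and 6.

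**Figure D1:**
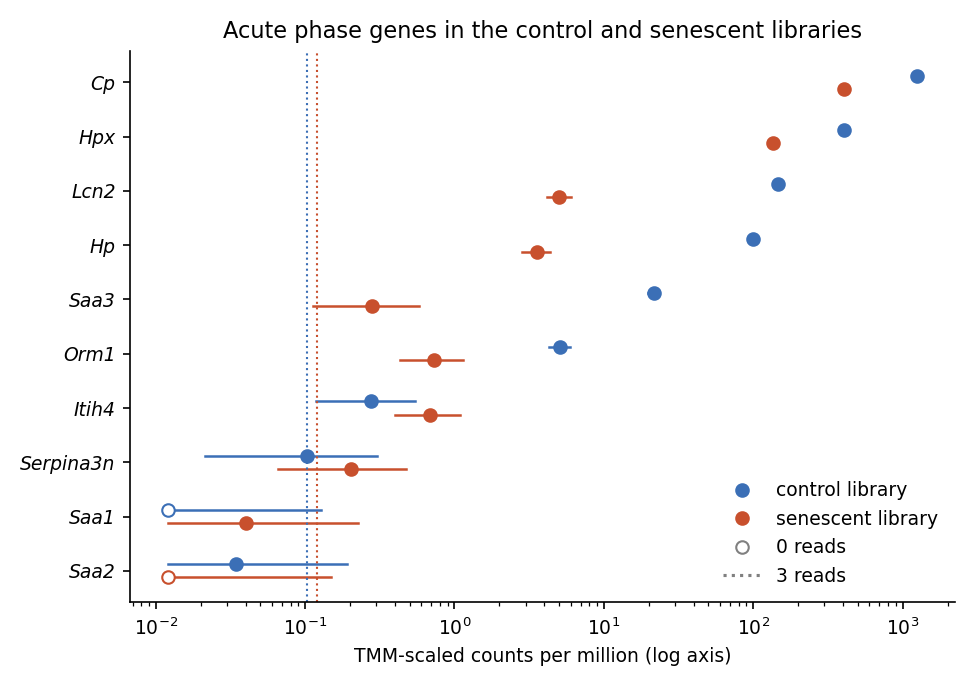
TMM-scaled CPM (log axis) of the 10 acute phase genes in the control (blue) and senescent (red) library, with exact Poisson 95% intervals; open circles mark 0 reads, drawn at the left edge, and dotted lines mark 3 reads. Saa3, Lcn2, Hp, Orm1, Cp and Hpx are lower in the senescent library, and the intervals of the other 4 genes overlap between libraries.

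**Figure D2:**
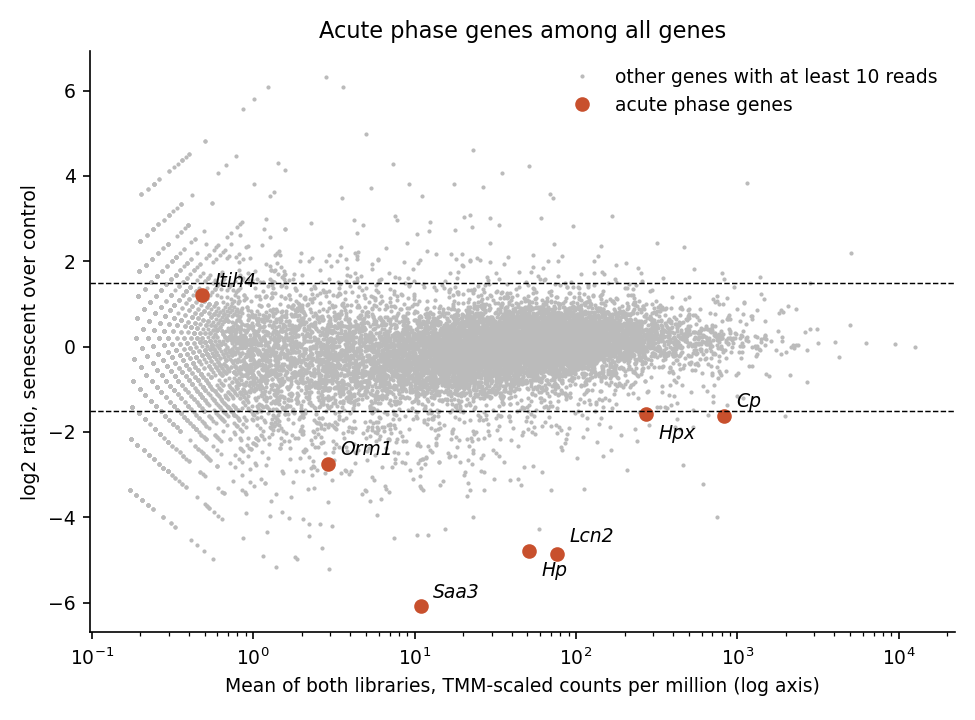
Log2 ratio of senescent over control against mean CPM (log axis) for the 14383 genes with at least 10 reads, genes with 0 reads in a library being placed by the prior count. The 7 acute phase genes that pass this filter are named, dashed lines mark log2 ratios of -1.5 and 1.5, and Saa3, Lcn2 and Hp lie at the lower edge of the cloud for their level.

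The serum amyloid A genes encode small apolipoproteins of high-density lipoprotein, and they lie together on mouse chromosome 7 with Saa4. Saa1 and Saa2 are the forms that the liver releases into plasma in an acute phase response, while Saa3 is also made by macrophages and fat cells. Saa3 (ENSMUSG00000040026, chromosome 7 from 46711998 to 46715700 of GRCm38, minus strand) had 626 reads or 21.5 CPM in the control library and 7 reads or 0.282 CPM in the senescent library. Its log2 ratio was -6.08 (95% interval -7.57 to -5.20), which is 67.5-fold lower with counting limits of 36.8-fold and 190-fold. The interval is wide because so few reads were left in the senescent library. Saa1 (ENSMUSG00000074115, from 46740497 to 46742980, minus strand) had 0 control reads and 1 senescent read. Saa2 (ENSMUSG00000057465, from 46751790 to 46754313, plus strand) had 1 control read and 0 senescent reads. Saa4, which makes a form present in plasma at all times, had 0 and 2 reads. These genes were at or under the floor of 3 reads per library, 0.103 CPM in the control and 0.121 CPM in the senescent library, so no fold is given. Of the serum amyloid A reads, 626 of 627 in the control library and 7 of 10 in the senescent library came from Saa3.

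Shared sequence bears on that split, since the counting of reads that match several genes is not given in the sources used here. The translated GENCODE M21 transcripts of Saa1 and Saa2 were identical at 113 of 122 residues (92.6%), against 64.8% for Saa1 and Saa3. Of the 100-base windows of the coding transcripts of Saa1, Saa2 and Saa3, 0 occurred in a transcript of another gene. At 50 bases, 14.8% of Saa1 windows and 13.3% of Saa2 windows did, against 1.78% of Saa3 windows. The sequences before the RefSeq start sites are shown as a description, and their part in the levels of these genes was not tested. Each runs 5′ to 3′ on the strand of the gene from 250 to 51 bases before the start (RefSeq on GRCm38.p6), and capitals mark a match to the C/EBP letters TTNNGNAAT on the opposite strand. They lie at chr7:46743031-46743230 on the minus strand (Saa1), chr7:46751583-46751782 on the plus strand (Saa2) and chr7:46715727-46715926 on the minus strand (Saa3).
Saa1: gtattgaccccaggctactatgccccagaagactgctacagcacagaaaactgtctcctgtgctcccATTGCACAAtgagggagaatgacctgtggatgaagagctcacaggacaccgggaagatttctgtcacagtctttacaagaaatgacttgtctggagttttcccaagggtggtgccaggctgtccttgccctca
Saa2: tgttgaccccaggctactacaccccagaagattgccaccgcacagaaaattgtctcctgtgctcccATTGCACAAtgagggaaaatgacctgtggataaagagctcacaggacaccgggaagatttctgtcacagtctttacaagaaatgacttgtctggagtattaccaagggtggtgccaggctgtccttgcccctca
Saa3: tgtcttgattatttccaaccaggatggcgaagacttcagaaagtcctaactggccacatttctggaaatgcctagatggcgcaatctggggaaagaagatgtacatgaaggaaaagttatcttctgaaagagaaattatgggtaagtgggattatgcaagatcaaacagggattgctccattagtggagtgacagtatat
Over 250 bases the Saa1 and Saa2 stretches were 94.8% identical and shared the capitalised match, which starts 183 bases before the start of Saa1 and 184 before that of Saa2. The Saa3 stretch was 48.5% identical to that of Saa1 and held no match to these letters.

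Lcn2 encodes lipocalin 2, a secreted protein that binds bacterial siderophores and so withholds iron. It is a well-known NF-κB target in hepatocytes and is also made by neutrophils. Lcn2 (ENSMUSG00000026822, chromosome 2 from 32384633 to 32388252, minus strand) had 4293 reads or 148 CPM in the control library and 125 reads or 5.04 CPM in the senescent library. The log2 ratio was -4.86 (-5.14 to -4.62), which is 29.1-fold lower. On the TPM scale, which divides reads by the merged exon length of each gene and brings every library to the same total, its level went from 184 to 6.03, and its rank from 890 of 17235 genes with a level above 0 to 9439 of 17416. The neutrophil markers were at or near 0 in both libraries. Of 8 markers, Ly6g, Mpo, Elane, Camp and Ngp had 0 reads in both, S100a8 had 2 control and 12 senescent reads, S100a9 had 2 and 8, and Ltf 1 and 2. Their summed level was 0.172 CPM in the control and 0.887 CPM in the senescent library, so it was higher where Lcn2 was lower, and its part in the level of Lcn2 was not tested.

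Hp and Hpx encode the plasma proteins that bind free haemoglobin and free haem. Hp (ENSMUSG00000031722, chromosome 8 from 109575128 to 109579172, minus strand) had 2886 reads or 99.2 CPM in the control library and 88 reads or 3.55 CPM in the senescent library. Its log2 ratio of -4.79 (-5.13 to -4.50) is 27.7-fold lower, close to that of Lcn2. Hpx (ENSMUSG00000030895, chromosome 7 from 105591613 to 105600137, minus strand) had 11825 control reads or 407 CPM and 3390 senescent reads or 137 CPM. Its log2 ratio was -1.57 (-1.63 to -1.52), or 2.97-fold lower, and it kept 286 TPM in the senescent library, the highest level per length of the 10 genes there. Hp and Hpx thus differed in the size of the fall by far more than their counting intervals. If replicate libraries varied with a coefficient of variation of 0.4, the interval of Hpx would include 0. That of Cp, whose log2 ratio was -1.62, would leave out 0 only narrowly. Those of Saa3, Lcn2, Hp and Orm1 would leave it out as well.

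Cp encodes ceruloplasmin, the copper-carrying ferroxidase of plasma that oxidises iron for loading onto transferrin. It had the most reads of the 10 genes. Cp (ENSMUSG00000003617, chromosome 3 from 19957054 to 20009145, plus strand) had 36093 reads or 1241 CPM in the control library and 10028 reads or 404 CPM in the senescent library. Its log2 ratio was -1.62 (-1.65 to -1.59), 3.07-fold lower and close to that of Hpx. The count cannot separate the secreted from the membrane-anchored form of ceruloplasmin. Exons of Cp share 108 of 9566 bases with Hps3 on the other strand, which had 579 and 709 reads, too few to alter the count of Cp by much. Slc40a1, the iron exporter ferroportin that works with ceruloplasmin, had 4395 and 2602 reads (log2 ratio -0.53, interval -0.60 to -0.46) and did not pass the threshold.

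Orm1 encodes orosomucoid, or alpha-1-acid glycoprotein, a carrier of basic drugs and lipids. Orm1 (ENSMUSG00000039196, chromosome 4 from 63344560 to 63348163, plus strand) had 147 reads or 5.06 CPM in the control library and 18 reads or 0.726 CPM in the senescent library. The log2 ratio was -2.74 (-3.59 to -2.09), 6.67-fold lower. Its neighbours Orm2, with 4 control reads and 1 senescent read, and Orm3, with 8 and 1, had fewer than 10 reads each. Their proteins are 81.2% and 76.8% identical to that of Orm1, and 6.95% of the 100-base windows of Orm1 also occur in Orm2, so the split between them is uncertain. With the reads of the 3 genes summed, 159 control and 20 senescent, the log2 ratio was -2.71 (-3.51 to -2.09).

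Itih4 and Serpina3n, which encode a heavy chain of the inter-alpha-trypsin inhibitor family and a serine protease inhibitor, were barely transcribed in both libraries. Itih4 (ENSMUSG00000021922, chromosome 14 from 30886476 to 30902353, plus strand) had 8 reads or 0.275 CPM in the control library and 17 reads or 0.685 CPM in the senescent library. The log2 ratio of 1.21 had an interval of 0.03 to 2.74 and did not pass the threshold. Serpina3n (ENSMUSG00000021091, chromosome 12 from 104406729 to 104414329, plus strand) had 3 and 5 reads, a log2 ratio of 0.77 with an interval of -1.40 to 3.65, too few reads to show a difference. The related genes were uneven. Itih2, another heavy chain gene, had 5673 control and 2080 senescent reads (log2 ratio -1.22, interval -1.29 to -1.15), and Ambp, which encodes the light chain, had 11259 and 8207 (-0.23, interval -0.27 to -0.19). Itih1 had 8 and 4 reads, Itih3 had 9 and 10, and Itih5 had 11 and 3. In the Serpina3 cluster of 11 genes the reads summed to 20 and 31, and Serpina3k had 0 control and 19 senescent reads. Against a floor of 3 control reads Serpina3k was 7.43-fold higher, a value that leaves out the counting error of the 19 reads. Serpina3k shares 4.85% of its 100-base windows with Serpina3m, which had 0 reads in both libraries.

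The make-up of the acute phase transcripts differed between the libraries. Per length, Hpx held 50.8% of the summed level of the 10 genes in the control library, Cp 24.3%, Hp 11.6% and Lcn2 10.5%, with 1.55% for Saa3 and 1.22% for Orm1. In the senescent library, Hpx held 65.6% and Cp 30.4%, and the other 8 genes together went from 24.9% to 3.94%. The summed level was 1750 TPM in the control and 436 TPM in the senescent library. These shares depend on the gene length used. By the longest transcript, Cp held 36.7% and Hpx 36.6% in the control library, and Lcn2 (14.5%) stood above Hp (9.96%).

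**Figure D3:**
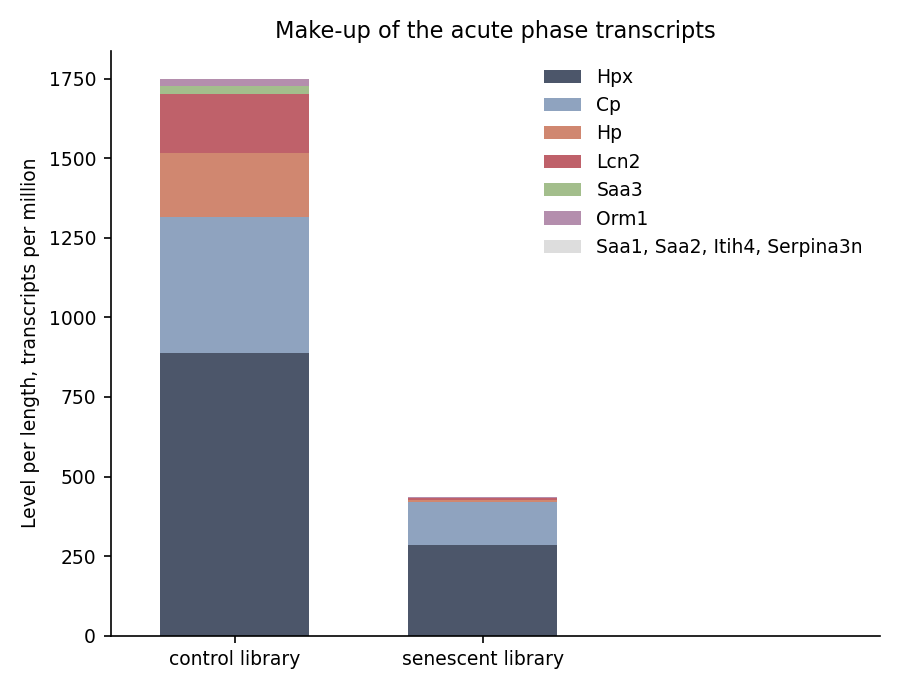
Level per length in TPM over merged exons, stacked by gene, in the control and the senescent library. The bars reach 1750 and 436 TPM, and Hp, Lcn2, Saa3 and Orm1 are visible in the control bar but nearly gone from the senescent bar.

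Other positive acute phase genes passed the threshold in both directions, but the higher ones had few reads. Of 22 listed from general knowledge, 16 had at least 10 reads, of which 3 were lower and 3 higher past the threshold. Of the 16, 11 had a log2 ratio below 0, against 51.1% of all 14383 genes. Their median was -0.91 on the log2 scale, against -0.02 for all 14383 genes. Over those of the list with at least 100 reads the median was -1.33. Over all genes, 5.60% were lower and 2.71% higher. The lower genes were the pentraxins Crp, with 5196 control and 1022 senescent reads (-2.12, interval -2.21 to -2.02), and Apcs, with 562 and 77 (-2.62, interval -3.001 to -2.29), and Lrg1, with 51 and 4 (-3.17, interval -5.37 to -2.00). Crp and Apcs encode C-reactive protein and serum amyloid P. The genes with the most reads that stayed within the threshold were Mt1, with 15651 and 7479 reads (-0.84), Mt2, with 13990 and 4492 (-1.41), and Lbp, which encodes the lipopolysaccharide-binding protein, with 8270 and 3788 (-0.90). Fga, which encodes a fibrinogen chain, was higher, with 8 and 34 reads (2.17, interval 1.18 to 3.64), while Fgb had 16 and 14 and Fgg 0 and 8. Serpina1c, with 4 and 14 reads (1.78, interval 0.37 to 4.10), and Serpina1e, with 2 and 26 (3.36, interval 1.93 to 7.05), were higher too, but Serpina1a had 102 and 32 and Serpina1b 262 and 113, and reads of these near-identical genes may be split wrongly.

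Negative acute phase genes, whose plasma proteins fall in an acute phase response, were on the whole not higher in the senescent library. Of 12 listed, 10 had at least 10 reads, with a median of -0.54. That median was -0.21 over genes with at least 1 read and -1.04 over those with at least 100. Past the threshold, 2 of the 10 were lower and 1 higher, against 5.60% and 2.71% of all genes. The lower genes were Alb, with a log2 ratio of -3.23 (-3.28 to -3.17), and Apoa1, with -3.13 (-3.35 to -2.92). Gc, which encodes the vitamin D-binding protein, had 28593 control and 10865 senescent reads (-1.17, interval -1.20 to -1.13), and the transthyretin gene Ttr had 23146 and 10486 (-0.91, interval -0.95 to -0.88). The higher gene was Serpinc1, which encodes antithrombin, at 3 and 19 reads (2.52, interval 1.13 to 5.29).

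Transcripts of the classical inducing cytokines were at the limit of detection in these cells. Il6 had 1 control read and 0 senescent reads, Il1a 1 and 0, Il1b 0 and 1, Tnf 4 and 0, and Osm and Il22 had 0 in both libraries. Against a floor of 3 senescent reads Tnf would be 1.14-fold lower, but 4 and 0 reads are too few to show a difference. No fold is given for the others. By RT-qPCR, the paper reported higher Il1b and Il6 expression in senescent than in control AML12 cells. The reads here are too few to be set against that result. Of the gp130 cytokines, Clcf1 had 2390 and 2036 reads (interval -0.09 to 0.08), Lif had 739 and 646 (0.04, interval -0.12 to 0.19), Ctf1 had 161 and 62 (-1.14, interval -1.59 to -0.72) and Il11 had 49 and 26 (-0.67, interval -1.43 to 0.03). None of these 4 passed the threshold.

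Of 12 cytokine receptor genes, 11 had at least 10 reads and 1 was lower past the threshold, against 5.60% of all genes. This was Il1r1, the signalling receptor for interleukin-1, for which 563 control reads stood against 66 senescent reads (-2.85, interval -3.25 to -2.49). The oncostatin M receptor gene Osmr had 342 and 106 reads (-1.45, interval -1.79 to -1.14), Il6ra had 737 and 332 (-0.92, interval -1.11 to -0.73) and Il6st, which encodes gp130, had 8524 and 3931 (-0.89, interval -0.94 to -0.83). The genes of the receptors for tumour necrosis factor differed less, with 3610 and 3621 reads for Tnfrsf1a (0.23, interval 0.17 to 0.30). In the STAT3 arm, 11 of 11 genes had at least 10 reads, with a median of 0.01. Stat3 itself had 3111 and 2669 reads (0.01, interval -0.07 to 0.08) and its target Socs3 had 893 and 913 (0.26, interval 0.13 to 0.40). Socs1, an inhibitor of JAK kinases, was the only gene of this list past the threshold, with 34 and 188 reads (2.66, interval 2.16 to 3.27). Of all genes, 2.71% were higher past it.

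In the NF-κB arm, 18 of 18 genes had at least 10 reads, with a median of -0.30. Past the threshold, 3 were lower and none was higher, against 5.60% and 2.71% of all genes. The 3 lower genes all encode inhibitors that are also known NF-κB targets, and whether NF-κB activity differed was not tested. Nfkbia had 3554 control and 748 senescent reads (-2.02, interval -2.13 to -1.90), Tnfaip3 had 4166 and 940 (-1.92, interval -2.02 to -1.82) and Nfkbie had 1444 and 404 (-1.61, interval -1.77 to -1.45). The related genes Nfkbib, with 2135 and 1333 reads (-0.45), and Nfkbiz, with 1157 and 910 (-0.12), stayed within the threshold. The subunit gene Rela had 4422 and 3831 reads (0.02, interval -0.04 to 0.09), and Nfkb2 had 8871 and 5105 (-0.57, interval -0.62 to -0.52). Of the C/EBP family, none of the 6 genes with at least 10 reads passed the threshold. Their median was -0.08, with 3 below 0 and 3 above. Cebpa had 1993 and 626 reads (-1.44, interval -1.57 to -1.31). Cebpd had 320 and 127 (-1.10, interval -1.41 to -0.80) and Cebpb had 3379 and 2337 (-0.30, interval -0.38 to -0.23). Above 0 were Cebpz, with 2047 and 3173 reads (0.86, interval 0.78 to 0.94), Ddit3, with 874 and 936 (0.33), and Cebpg, with 3215 and 3016 (0.14). Among 11 hepatocyte transcription factors, 4 were lower and none was higher. These were Nr5a2, with 349 and 30 reads (-3.27, interval -3.90 to -2.77), Foxa3, with 799 and 120 (-2.50, interval -2.79 to -2.23), Onecut1, with 332 and 62 (-2.17, interval -2.61 to -1.80), and Foxa1, with 276 and 61 (-1.93, interval -2.37 to -1.54).

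**Figure D4:**
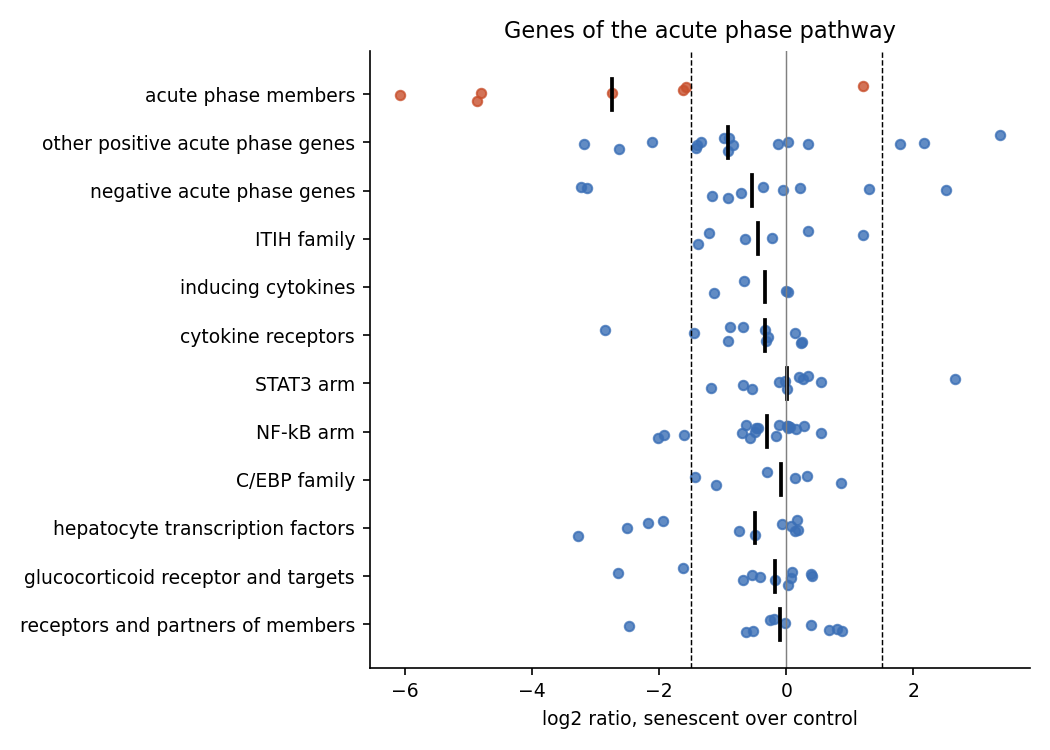
Log2 ratio of senescent over control for the genes with at least 10 reads of the acute phase list (red) and of the other lists of the pathway (blue), with black bars at list medians and dashed lines at -1.5 and 1.5. The Serpina3 cluster is left out, and a gene that belongs to several lists, such as Itih4, is drawn in each. The acute phase genes reach from -6.08 to 1.21 and the inducing cytokines from -1.14 to 0.04.

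The set of RefSeq start-site windows used here, on GRCm38.p6, covered 8 of the 10 genes, with a pair of windows for Cp. It held no entry for Hp and Orm1, so no window was read for them. In the 250 bases before the start, searched on both strands, the C/EBP letters TTNNGNAAT occurred in 10.2% of all 32851 windows, the STAT letters TTCNNNGAA in 7.02% and the NF-κB consensus in 7.25%. The windows of Saa3, Lcn2, Hpx and Cp, all genes that fell, held no match to these 3 motifs. Of the 200 bases from 250 to 51 before the start, 147 in Lcn2 and 145 in the second window of Cp are annotated exon in GENCODE M21, so these windows are not purely upstream sequence. Matches were found in the near-silent genes, with the C/EBP letters in Saa1, Saa2 and Serpina3n and the STAT letters 51 bases before the start of Itih4. Serpina3n also held a match to the glucocorticoid receptor consensus, found in 0.387% of all windows. Such a match is a description of the letters in this window only.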

How the data were processed

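The authors deposited a count of reads per gene, not normalized, for both libraries. Per the labels, RNA was poly(A)-selected and copied with random primers, and the submitters' processing notes name CASAVA, STAR, DESeq2, edgeR and the build mm10, without versions. The counting tool, the annotation and the use of strand are not given in the sources used here. Columns were assigned by the initials of the sample titles. Symbols, positions and exons came from GENCODE M21 on GRCm38, which named 34490 of 35275 genes, and promoters from RefSeq on GRCm38.p6. The members, lists and motifs were chosen with earlier results of these data known.

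Counts were scaled with TMM in edgeR 4.0.16 (R 4.3.3) (factor 1.04, control; 0.964, senescent), and in the alternatives with DESeq2 1.42.0, upper quartiles or total counts. Ratios and exact intervals were computed in Python 3.11.15 with scipy 1.17.1, protein identity with Biopython 1.88 and plots with matplotlib 3.10.9. For a gene with 0 reads in a library and more than 3 in the other, the fold was taken against 3 reads. Such a fold leaves out the counting error of the other library. No fold was given with 3 or fewer in both. The method was tested on simulated data. Named are all members, their family neighbours, all inducing cytokines, and of each other list up to 5 genes with the largest absolute ratio and up to 3 with the most reads. Named outside this rule, after their values were seen, are Fgb, Fgg, Serpina1b, Serpina1c, Socs3, Stat3, Rela, Nfkbib, Nfkbiz, Nr3c1, the receptors with 0 reads and the cell type markers under 10 reads.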

Additional observations from a re-analysis of the deposited data

How the results depend on the processing

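The 6 acute phase genes that were lower kept this direction under each alternative run, 11 for each gene and 12 for Orm1. The lowest and highest log2 ratios over these were -6.23 and -5.54 for Saa3, -4.97 and -4.82 for Lcn2, -4.90 and -4.74 for Hp, -2.84 and -2.52 for Orm1, -1.73 and -1.62 for Cp, and -1.68 and -1.57 for Hpx. With a threshold of 2, Hpx and Cp no longer passed. With an assumed biological coefficient of variation of 0.4, Hpx did not pass and Cp passed only narrowly. With a threshold of 1, 1 acute phase gene was higher, Itih4. Of the 114 other pathway genes with at least 10 reads, 26 were lower at that threshold in place of 16. Total-count scaling moved the median of all genes by -0.11. Of all 14383 genes with at least 10 reads, 805 (5.60%) were lower and 390 (2.71%) higher. Over the 11291 genes with at least 100 reads, 395 (3.50%) were lower and 141 higher. Over the 14383 genes, the counts were 1435 and 732 at a threshold of 1, and 460 and 219 at a threshold of 2. The higher genes numbered 259 with a prior count of 5 and 243 with a coefficient of variation of 0.4. Of the 114 other pathway genes, 6 were higher, and 1 among those with at least 100 reads. Cp held 24.3% of the summed level of the 10 genes of the control and 30.4% of that of the senescent library, 36.7% and 47.3% by longest transcript and 64.6% and 73.3% with no length correction, a change that follows from its length. No paired analysis was possible because each condition has 1 library. Depth limits Saa1, Saa2, Serpina3n and Itih4.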

Other observations

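The glucocorticoid receptor gene and its targets, listed because the medium of both groups holds dexamethasone, had a median log2 ratio of -0.18 over 11 genes with at least 10 reads, against -0.02 for all genes. With at least 100 reads the median of the list was -0.42. The receptor gene Nr3c1 had 3280 control and 2950 senescent reads (0.08, interval 0.004 to 0.15). Fkbp5, a direct target, had 15461 and 17519 reads (0.41, interval 0.38 to 0.44), and Sgk1 had 16369 and 14860 (0.09, interval 0.06 to 0.12). Past the threshold, 2 genes were lower, Zbtb16 with 1081 and 146 reads (-2.65, interval -2.92 to -2.41) and Dusp1 with 1684 and 464 (-1.63, interval -1.78 to -1.48), and none was higher. The shares over all genes were 5.60% lower and 2.71% higher.

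Of 19 receptor and partner genes, 10 had at least 10 reads and 7 had 0 reads in both libraries, among them the lipocalin 2 receptors Slc22a17 and Lrp2 and the haemoglobin-haptoglobin receptor Cd163. Lrp1, the hemopexin receptor, had 1480 control and 812 senescent reads (-0.64, interval -0.76 to -0.51). Tlr2, a receptor for serum amyloid A, was the only gene of the list past the threshold, with 213 and 32 reads (-2.47, interval -3.09 to -1.96). Of all genes, 5.60% were lower past it. Hmox1, which encodes the haem-degrading enzyme heme oxygenase 1, had 950 and 1417 reads (0.81, interval 0.69 to 0.93).

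Macrophage markers were at low levels in both libraries. Of 8 markers, Adgre1, Clec4f and Cd163 had 0 reads in both, while Ptprc had 27 control and 76 senescent reads and Csf1r had 15 and 40, and the summed level was 2.68 CPM and 6.29 CPM. Markers of endothelial cells summed to 0.206 and 0.564 CPM and those of stellate cells and fibroblasts to 0.928 and 0.363 CPM. Their part in the level of the acute phase genes was not tested.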
